A study of Mus musculus with 6 samples.

Results

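The 31 genes described here belong to Schwann cells, the glia that wrap peripheral axons, and to the myelin they make. They were taken as a named list, matched by symbol to 31 of the 55769 features measured in each library. RNA-seq of the mouse cochlea on postnatal day 3 gave 6 libraries, 3 from Plscr5-/- mice (Plscr5 knockout) and 3 from wild type mice. Plscr5 encodes a member of the phospholipid scramblase family, and the comparison asks which cochlear transcripts differ when it is disrupted. The labels give neither the strain nor the altered part of Plscr5, nor whether a library came from 1 animal or a pool, so every p-value here rests on spread among libraries that may be partly technical. Their extraction text names Pou4f3(Δ/+) mice, a line that no library carries as its genotype, so groups follow the genotype given for each library.

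In the cochlea, Schwann cells ensheath the peripheral processes of spiral ganglion neurons and run with the auditory nerve into the modiolus. They arise from the neural crest through precursors that express Sox10, Erbb3 and Foxd3, and they depend on neuregulin from axons, read by the paired receptors Erbb2 and Erbb3. Pou3f1 and then Egr2 start the myelin programme, which supplies the proteins and the sphingolipids of the sheath. Around birth this programme is under way in the auditory nerve.

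The values are TPM, transcript abundances scaled for length to a constant total, so levels of different genes can be compared but read depth is unknown. Genotype was tested with limma on log2(TPM + 1) over the 17097 features that reached 1 TPM in at least 3 libraries, with Benjamini-Hochberg adjustment over all of them. All 31 genes met that filter. Plscr5 had 4.30, 3.69 and 5.01 TPM in the knockout libraries, against 14.5, 12.4 and 9.27 TPM in wild-type cochleae. The knockout values were all lower but not at 0, and the log2 fold change did not pass the adjusted threshold. Log2 fold changes below are knockout over wild type after adding 1 to each TPM, so those of low genes come out too small. One library, wild type replicate 3, stood apart from the others in the genes described here, so log2 fold changes and medians are given with and without it.

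None of the 31 genes passed the threshold, in either direction (limma adjusted p from 0.989 to 0.998). Over all features 0.0117% passed, which is 2 features. Of the 31 genes, 2 had an unadjusted limma p under 0.05, Gal3st1 and Pou3f1, both higher in the knockout. Of all features, 4.0% had such a p, 2.15% with a higher knockout level. A log2 fold change above 0 was found for 25 of the 31, against 46.6% of all features, and the median was 0.46, against -0.011 over all features. Without wild type replicate 3 the count was 22 of 31, against 47.1% of all features, the median was 0.16, and again none passed (adjusted p from 0.912 to 0.995, where 0.0178% of features passed). The 3 knockout values lay above the 3 wild-type values for 5 genes, Mbp, Pmp22, Gldn, Gal3st1 and Pou3f1, where 4.60% of all features did, and below them for none, where 4.74% did. A two-sided exact permutation test of each of those 5 genes gave p = 0.1, the smallest that 3 libraries against 3 allow. These genes vary together across libraries and are not 31 independent observations.

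**Figure D1:**
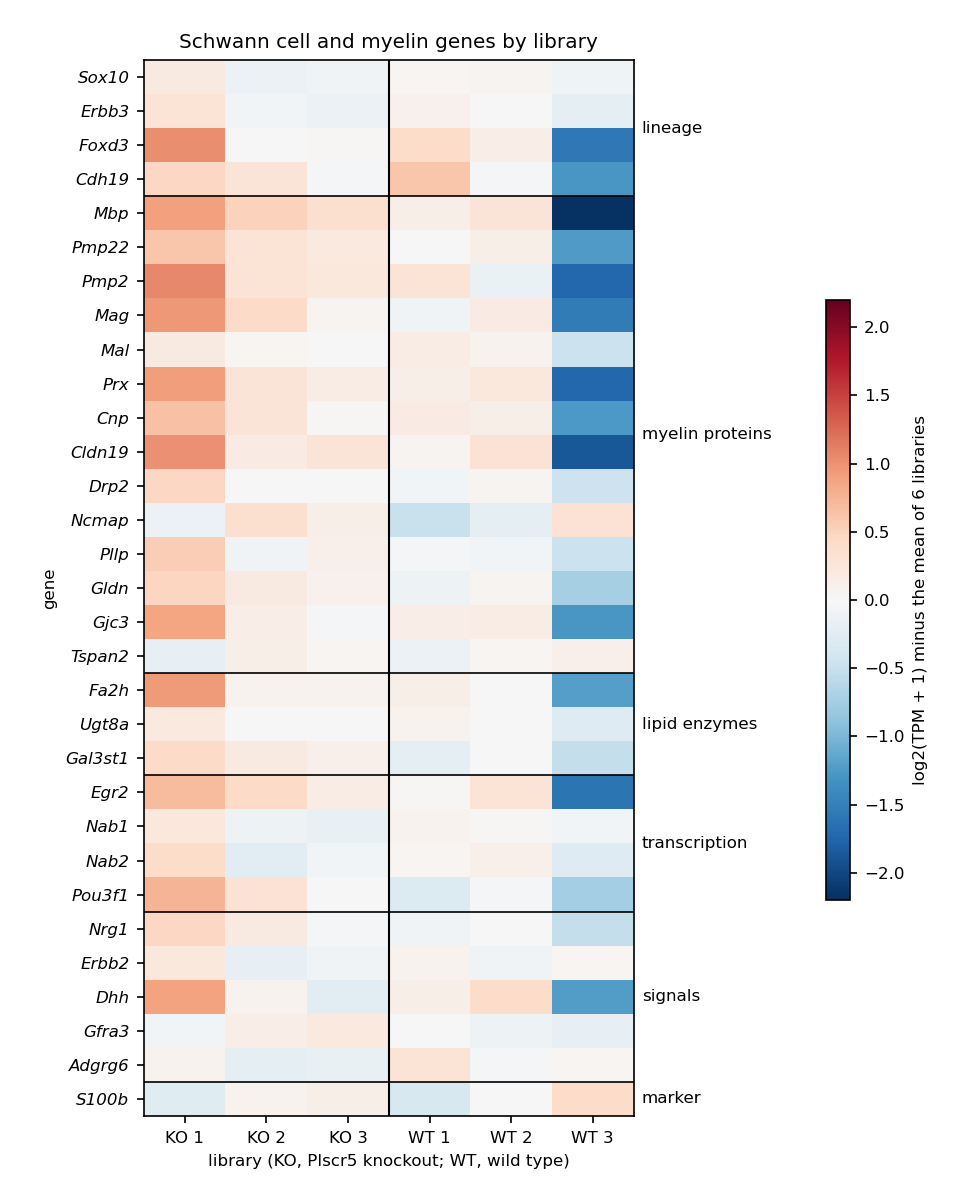
Level of each of the 31 genes (rows, grouped by role) in each library (columns), as log2(TPM + 1) minus the gene's mean over the 6 libraries, red for higher and blue for lower. Wild type replicate 3 is the lowest library for 24 of the 31 genes and knockout replicate 1 the highest for 25.

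The lineage and precursor genes divided into a pair that was nearly level and a pair that was low in 1 library. Sox10 (ENSMUSG00000033006), the transcription factor that specifies and maintains neural crest glia, had 226, 182 and 187 TPM in the knockout libraries, against 204, 206 and 186 TPM in wild-type cochleae. The groups overlapped, and the log2 fold change was -0.008 (95% confidence interval -0.22 to 0.21), and -0.055 without wild type replicate 3. Erbb3, the neuregulin-binding receptor of the lineage, had 79.4, 61.97 and 58.8 TPM in knockout cochleae, against 69.3, 64.7 and 55.7 TPM in wild-type cochleae. Its log2 fold change was 0.069 (95% confidence interval -0.23 to 0.37), and -0.018 without wild type replicate 3.

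Foxd3 (ENSMUSG00000067261), a transcription factor of neural crest and glial precursors, had 11.2, 4.99 and 5.15 TPM in the knockout libraries, against 6.96, 5.65 and 1.04 TPM in wild-type cochleae. Knockout replicate 1 was highest and wild type replicate 3 lowest. The other 4 libraries lay between 4.99 and 6.96 TPM, with both knockout values below both wild-type values. Cdh19, a cadherin of Schwann cell precursors, had 6.60, 5.79 and 4.43 TPM in knockout cochleae, against 7.53, 4.47 and 1.29 TPM in wild-type cochleae. Here wild type replicate 1 was highest and replicate 3 lowest. The log2 fold change of Foxd3 was 0.69 (SE 0.58) with all libraries and 0.075 without wild type replicate 3. For Cdh19 the same values were 0.46 (SE 0.46) and -0.062. Over the 4 lineage genes the median log2 fold change was 0.27 with all 6 libraries and -0.036 without that library. Omitting knockout replicate 1 gave 0.14 for the median and 0.35 for Foxd3. Omitting wild type replicate 1 gave 0.51 for the median and 1.06 for Foxd3. Sox10 is also expressed by cochlear epithelium, including supporting cells, so its level is not that of Schwann cells alone.

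The myelin genes, that is the 14 myelin proteins, the 3 lipid enzymes and the 4 transcription regulators, had a median log2 fold change of 0.63, with 19 of 21 above 0. Without wild type replicate 3 the median was 0.28, with 18 of 21 above 0, and without knockout replicate 1 it was 0.40. The difference between myelin and lineage medians is a description and was not tested. Their TPM values summed to 1402, 1073 and 985 in the knockout libraries, against 901, 963 and 367 in the wild-type libraries. The 3 knockout sums thus lie above the 3 wild-type sums, with knockout replicate 3 and wild type replicate 2 close together. The corresponding sums of the 4 lineage genes were 323, 255 and 256 in knockout cochleae, against 288, 281 and 244 in the wild type, and these overlap. In RNA of a whole tissue, fewer cells of a type and less RNA per cell cannot be told apart.

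Among proteins of compact myelin, Mbp was the most abundant. Mbp (ENSMUSG00000041607) encodes myelin basic protein, which holds the cytoplasmic faces of the membrane together. It had 457, 349.6 and 315 TPM in the knockout libraries, against 268, 297 and 53.7 TPM in wild-type cochleae. The groups did not overlap, and wild type replicate 3 held 0.190 of the mean of the other 2 wild-type libraries. The log2 fold change was 1.18 (SE 0.74, 95% confidence interval -0.76 to 3.11), and 0.39 (0.021 to 0.75) without that library, where the unadjusted limma p was 0.0411. Pmp22, a tetraspan protein of peripheral myelin whose duplication causes a human neuropathy, had 346, 276 and 260.2 TPM in knockout cochleae, against 226, 245 and 94.5 TPM in wild-type cochleae. Its groups did not overlap either, and the log2 fold change was 0.75 (SE 0.40) with all libraries and 0.31 (0.028 to 0.59) without wild type replicate 3. Both genes are among the 4 with an unadjusted p under 0.05 in the fit without that library, where 4.63% of all features had one. The other 2 were Ncmap and Gal3st1.

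Pmp2, a fatty acid-binding protein of peripheral myelin, had 19.2, 10.9 and 10.4 TPM in the knockout libraries, against 10.9, 7.81 and 1.92 TPM in wild-type cochleae. Knockout replicate 1 was highest, knockout replicate 2 equalled wild type replicate 1, and the groups overlapped. This gave a log2 fold change of 1.05 (SE 0.56), and 0.45 without wild type replicate 3. Mal and Pllp encode small proteolipids of myelin and of other polarized membranes. Mal had 47.3, 42.4 and 40.6 TPM in knockout cochleae, against 45.8, 43.2 and 29.1 TPM in wild-type cochleae, and Pllp had 19.3, 12.2 and 14.03 TPM, against 12.7, 12.3 and 9.13 TPM. Both were lowest in wild type replicate 3, at 0.655 and 0.728 of the mean of wild type replicates 1 and 2. The log2 fold change of Mal was 0.16, and -0.036 without wild type replicate 3. For Pllp it was 0.37 and 0.23.

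Ncmap and Tspan2 did not follow the other myelin proteins. Ncmap, which encodes a membrane protein of noncompact myelin, had 24.4, 34.4 and 29.4 TPM in the knockout libraries, against 18.6, 23.2 and 33.3 TPM in wild-type cochleae. Among the 6 libraries wild type replicate 3 was the second highest and wild type replicate 1 the lowest. Its log2 fold change was 0.25 (SE 0.21) with all libraries. Without wild type replicate 3 it was 0.46 (0.086 to 0.84), and all 3 knockout values then lay above both wild-type values. That was so for 6 of the 31 genes, against 9.84% of all features, and the reverse for none, against 9.25%. Tspan2, a tetraspanin known from oligodendrocytes in rodents, had 7.17, 9.19 and 8.60 TPM in knockout cochleae, against 7.48, 8.56 and 9.01 TPM in wild-type cochleae (log2 fold change -0.0073, 95% confidence interval -0.33 to 0.31, and 0.044 without wild type replicate 3).

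**Figure D2:**
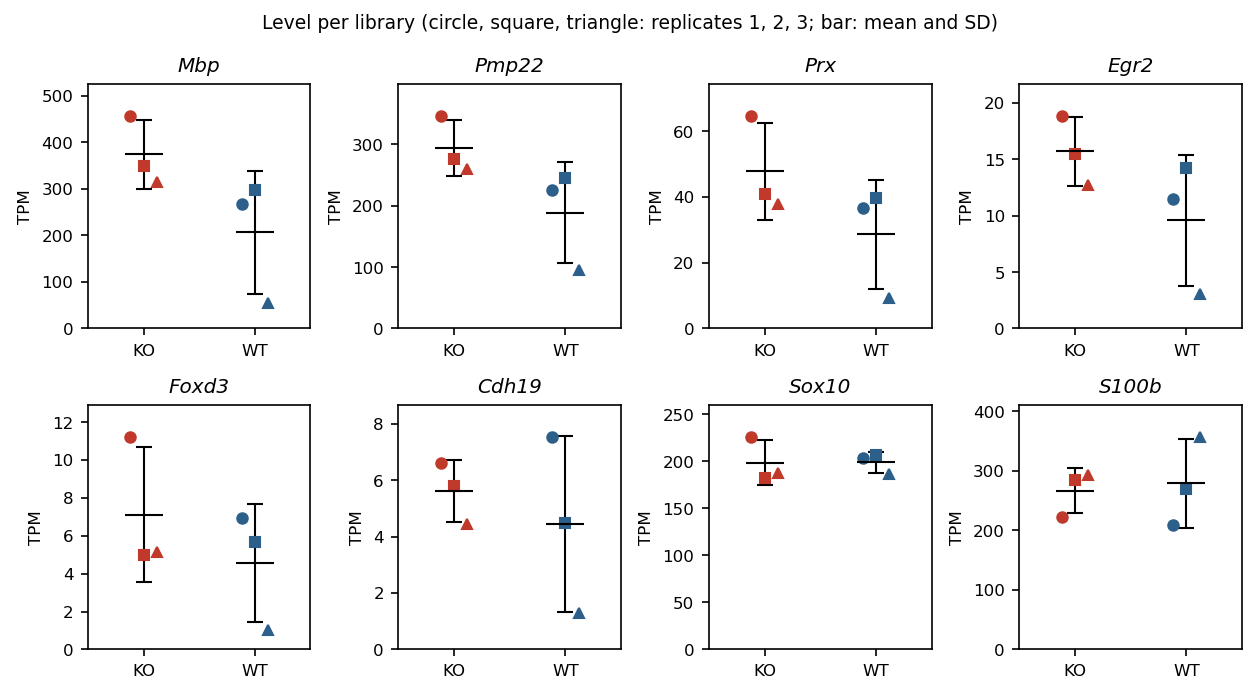
Level in TPM of 8 genes in each library, knockout left of wild type, with points for libraries and a bar for the mean with SD (n = 3 each). Wild type replicate 3 (triangle) lies far below the other wild-type points for Mbp, Pmp22, Prx, Egr2, Foxd3 and Cdh19, near them for Sox10 and above them for S100b.

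Prx, Drp2, Mag, Cldn19, Gjc3, Cnp and Gldn, genes of the axon-facing membrane, the junctions and the outer parts of the sheath, were all lowest in wild type replicate 3, to different degrees. Prx encodes periaxin, the scaffold that ties the outer Schwann cell membrane to dystroglycan. It had 64.7, 40.9 and 37.7 TPM in the knockout libraries, against 36.6, 39.8 and 9.40 TPM in wild-type cochleae. Apart from knockout replicate 1 and wild type replicate 3, the libraries lay between 36.6 and 40.9 TPM, with the genotypes interleaved. Its log2 fold change was 0.91 (SE 0.60), and 0.28 (-0.26 to 0.81) without wild type replicate 3. Drp2, a dystrophin-related partner of periaxin, had 8.87, 6.27 and 6.20 TPM in knockout cochleae, against 5.95, 6.55 and 4.27 TPM in wild-type cochleae. For Drp2 the log2 fold change was 0.30, and 0.15 without that library.

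Mag encodes the lectin of the periaxonal membrane that faces the axon. It had 20.01, 13.5 and 10.3 TPM in the knockout libraries, against 9.35, 11.4 and 2.76 TPM in wild-type cochleae, with overlap between knockout replicate 3 and wild type replicate 2. Cldn19, a claudin of the tight junctions within the sheath, had 47.5, 26.5 and 28.5 TPM in knockout cochleae, against 24.3, 29.1 and 5.63 TPM in wild-type cochleae. Gjc3, which encodes the connexin 29 gap junction protein, had 56.5, 34.1 and 29.5 TPM in knockout cochleae, against 34, 34.4 and 12.04 TPM in wild-type cochleae. In these 3 genes the picture was the same, with knockout replicate 1 at the top, wild type replicate 3 at the bottom and the other 4 libraries mixed. Their log2 fold changes were 0.95, 0.99 and 0.64 for Mag, Cldn19 and Gjc3 with all libraries, and 0.42, 0.30 and 0.17 without wild type replicate 3.

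Cnp encodes the cyclic nucleotide phosphodiesterase of noncompact myelin. It had 152, 118 and 99.5 TPM in the knockout libraries, against 110.3, 107 and 40.1 TPM in wild-type cochleae, and its log2 fold change was 0.63, or 0.16 without wild type replicate 3. In the GENCODE M21 annotation exons of Cnp overlap those of Dnajc7 on the opposite strand, which averaged 260.1 TPM, and the strand setting of the quantification is not given, so the level of Cnp is uncertain. Gldn encodes gliomedin, a secreted organizer of the node of Ranvier. It had 7.67, 6.10 and 5.65 TPM in the knockout libraries, against 4.77, 5.50 and 2.76 TPM in wild-type cochleae. The groups did not overlap, though knockout replicate 3 and wild type replicate 2 were close. Its log2 fold change was 0.51 (95% confidence interval -0.0088 to 1.03), and 0.28 without wild type replicate 3.

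Promoter sequences are shown for 4 of these genes, each with a window that holds a match to the letters given below. Prx, Mag and Gal3st1 were lowest in wild type replicate 3, while Ncmap was not. That library held 0.246, 0.266 and 0.733 of the mean of wild type replicates 1 and 2 for Prx, Mag and Gal3st1. The 250 bases before the RefSeq start (build GRCm38.p6) are given on the strand of the gene, and where a gene has several starts the window shown is one that holds a match. Capitals mark the letters ACAAAG or ACAATG, a core that SOX proteins such as Sox10 can bind, and GCGTGGG or GCGGGGGCG, letters that EGR proteins such as Egr2 can bind, read on both strands.
Prx, chr7:27499074-27499323, plus strand: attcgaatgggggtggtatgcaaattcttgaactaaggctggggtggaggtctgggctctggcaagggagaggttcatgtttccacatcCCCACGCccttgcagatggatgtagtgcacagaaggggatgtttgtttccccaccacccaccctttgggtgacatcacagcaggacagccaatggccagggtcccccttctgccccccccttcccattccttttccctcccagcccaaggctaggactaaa
Mag, chr7:30914923-30915172, minus strand: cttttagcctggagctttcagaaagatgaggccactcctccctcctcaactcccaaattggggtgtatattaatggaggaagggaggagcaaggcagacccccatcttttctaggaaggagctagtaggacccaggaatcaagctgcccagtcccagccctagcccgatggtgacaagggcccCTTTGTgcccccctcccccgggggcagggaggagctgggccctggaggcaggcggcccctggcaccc
Gal3st1, chr11:3983386-3983635, plus strand: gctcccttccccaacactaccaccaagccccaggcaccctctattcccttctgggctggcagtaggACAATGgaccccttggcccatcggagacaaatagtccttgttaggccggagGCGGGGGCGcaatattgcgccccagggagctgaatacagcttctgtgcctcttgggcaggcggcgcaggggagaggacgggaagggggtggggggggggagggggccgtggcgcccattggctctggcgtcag
Ncmap, chr4:135385673-135385922, minus strand: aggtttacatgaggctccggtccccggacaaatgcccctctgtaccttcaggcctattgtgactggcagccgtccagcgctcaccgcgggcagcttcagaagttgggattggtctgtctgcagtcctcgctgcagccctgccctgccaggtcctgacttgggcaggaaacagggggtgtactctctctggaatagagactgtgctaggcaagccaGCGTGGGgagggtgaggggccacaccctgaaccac

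The EGR letters begin 161 bases before the start of Prx, 133 before that of Gal3st1 and 35 before that of Ncmap. The SOX letters begin 67 bases before the start of Mag and 184 before that of Gal3st1. Of the 31 genes, 21 had windows in this search, with 35 start windows, some of which overlap. Windows on 1 chromosome were left out for the 31 genes but kept in the counts over all windows. No window was searched for Sox10, Erbb3, Cdh19, Mbp, Pmp2, Drp2, Fa2h, Pou3f1, Nrg1 and Gfra3, through that omission or for want of a match by symbol. SOX letters stood in 6 of the 35 windows, against 25.2% of all 32851 windows in the table. EGR letters stood in 7 of 35, those of Foxd3, Gal3st1, Nab1, Nab2, Ncmap and Prx, against 6.61% of all windows. Overlapping windows of Gal3st1 and of Mag hold the same matches, so SOX letters stood at 4 of the 21 genes and EGR letters at 6. Presence of these letters did not follow the level in wild type replicate 3. Cldn19, Egr2, Dhh, Gjc3 and Pmp22, at 0.211 to 0.401 of the mean of wild type replicates 1 and 2, had neither. Foxd3, Prx, Mag and Cnp, at 0.165 to 0.369, had SOX or EGR letters. The octamer ATGCAAAT, which POU proteins such as Pou3f1 can bind, stood in 4 of 35, in windows of Egr2 and Prx, against 1.6% of all windows. The Egr2 windows with the octamer overlap and hold the same match, so the octamer stood at 2 of the 21 genes. The TEAD letters GGAATG stood in 9 of 35, against 12.6%. No letters of 1 motif contain another motif. A match of letters is a description and not a binding site.

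The enzymes of myelin lipids gave the gene with the smallest p among the 31. Gal3st1 (ENSMUSG00000049721) adds sulfate to galactosylceramide to make sulfatide. It had 29.97, 25.7 and 24.02 TPM in the knockout libraries, against 19.2, 22.3 and 15.2 TPM in wild-type cochleae, a mean of 26.6 ± 3.06 TPM in knockouts and 18.9 ± 3.54 TPM in wild types (SD, n = 3 each). The groups did not overlap, and the log2 fold change was 0.48 (SE 0.15, 95% confidence interval 0.14 to 0.82, limma adjusted p = 0.989). Leaving out 1 library at a time gave 0.34 to 0.60, and the value was 0.34 (0.039 to 0.64) without wild type replicate 3. Fa2h, which hydroxylates the fatty acids of myelin sphingolipids, had 11.1, 5.72 and 5.69 TPM in knockout cochleae, against 5.90, 5.29 and 1.75 TPM in wild-type cochleae, with knockout replicate 1 and wild type replicate 3 at the extremes. Ugt8a, which makes galactosylceramide, had 13.6, 11.6 and 11.6 TPM in knockout cochleae, against 12.3, 11.6 and 9.31 TPM in wild-type cochleae, and varied less. For Fa2h the log2 fold change was 0.73, and 0.31 without that library. For Ugt8a it was 0.14 and 0.033.

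The transcription regulators of myelin differed in their pattern across libraries. Egr2, the zinc finger factor required for peripheral myelination, had 18.9, 15.5 and 12.8 TPM in the knockout libraries, against 11.4, 14.2 and 3.05 TPM in wild-type cochleae. In wild type replicate 3 it held 0.238 of the mean of the other 2 wild-type libraries, and the log2 fold change was 0.85 (SE 0.51), or 0.26 (-0.15 to 0.68) without it. Nab1 and Nab2 encode cofactors that bind EGR proteins and are expressed in many tissues. Nab1 had 12.4, 9.44 and 9.14 TPM in knockout cochleae, against 10.97, 10.5 and 9.86 TPM in wild-type cochleae, and its log2 fold change was -0.028 (95% confidence interval -0.35 to 0.29), or -0.066 without that library. Nab2 had 30.8, 19.4 and 22.1 TPM in knockout cochleae, against 23.7, 24.9 and 18.6 TPM in wild-type cochleae, a log2 fold change of 0.083 (-0.33 to 0.50), or -0.04 without that library. Exons of Nab2 overlap those of Stat6 on the opposite strand, which averaged 22.6 TPM, so its value is uncertain.

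Pou3f1 (ENSMUSG00000090125) encodes the factor of the promyelinating stage, before Egr2 takes over. It had 7.03, 4.95 and 3.84 TPM in the knockout libraries, against 2.90, 3.69 and 1.85 TPM in wild-type cochleae, a mean of 5.27 ± 1.62 TPM in knockouts and 2.81 ± 0.923 TPM in wild types (SD, n = 3 each). All knockout values lay above all wild-type values, with knockout replicate 3 close to wild type replicate 2. Its log2 fold change was 0.72 (SE 0.25, 95% confidence interval 0.14 to 1.30, limma adjusted p = 0.989). Without wild type replicate 3 it was 0.52 (-0.031 to 1.07), and it ranged from 0.52 to 0.89 over the single libraries left out.

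Among signals and receptors, the axonal ligand and its receptor differed in their pattern across libraries. Nrg1, the neuregulin that sets myelin thickness, had 8.51, 6.92 and 5.84 TPM in the knockout libraries, against 5.57, 5.88 and 3.80 TPM in wild-type cochleae. Its log2 fold change was 0.42 (95% confidence interval -0.03 to 0.86), and 0.25 without wild type replicate 3. Erbb2, the signalling partner of Erbb3, had 36.6, 27.3 and 29.4 TPM in knockout cochleae, against 32.8, 29.3 and 31.9 TPM in wild-type cochleae, a log2 fold change of -0.02 (95% confidence interval -0.30 to 0.26), or -0.0067 without that library. The interval of Erbb2, like that of Sox10, is narrow beside those of most myelin genes. Erbb2 overlaps exons of Mien1 on the opposite strand, which averaged 97.7 TPM, so its value is uncertain.

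Dhh, the hedgehog ligand by which Schwann cells organize the perineurium, had 20.6, 11.4 and 8.85 TPM in the knockout libraries, against 11.8, 14.6 and 4.0 TPM in wild-type cochleae. Knockout replicate 3 was below wild type replicates 1 and 2, and the log2 fold change was 0.47 (SE 0.50), or -0.03 without wild type replicate 3. Exons of Dhh overlap those of Rhebl1 on the same strand, which averaged 8.02 TPM. Adgrg6, the adhesion G protein-coupled receptor required to start myelination, had 50.95, 41.8 and 43.3 TPM in knockout cochleae, against 59.6, 46.7 and 49.6 TPM in wild-type cochleae. It had the lowest log2 fold change of the 31, -0.19 (95% confidence interval -0.46 to 0.081), and -0.22 without wild type replicate 3. Gfra3, the artemin receptor subunit, was near the filter, with 1.18, 1.51 and 1.66 TPM in knockout cochleae and 1.26, 1.12 and 1.02 TPM in wild-type cochleae (log2 fold change 0.20, and 0.16 without wild type replicate 3).

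S100b, a calcium-binding protein used to mark Schwann cells, was second only to Mbp in mean TPM over the 6 libraries and did not share the low value of wild type replicate 3. It had 223, 285 and 293 TPM in the knockout libraries, against 209.6, 270 and 357 TPM in wild-type cochleae. Wild type replicate 3 was the highest library and wild type replicate 1 the lowest, and the log2 fold change was -0.04 (95% confidence interval -0.53 to 0.45), or 0.15 without replicate 3. S100b is not restricted to Schwann cells in the inner ear. The supporting cell markers, 8 genes fixed as a list, summed to 1237, 1215 and 1319 TPM in knockout cochleae and 1286, 1321 and 1563 TPM in wild-type cochleae, so that wild type replicate 3 was highest there too. Their part in the S100b values was not tested.

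**Figure D3:**
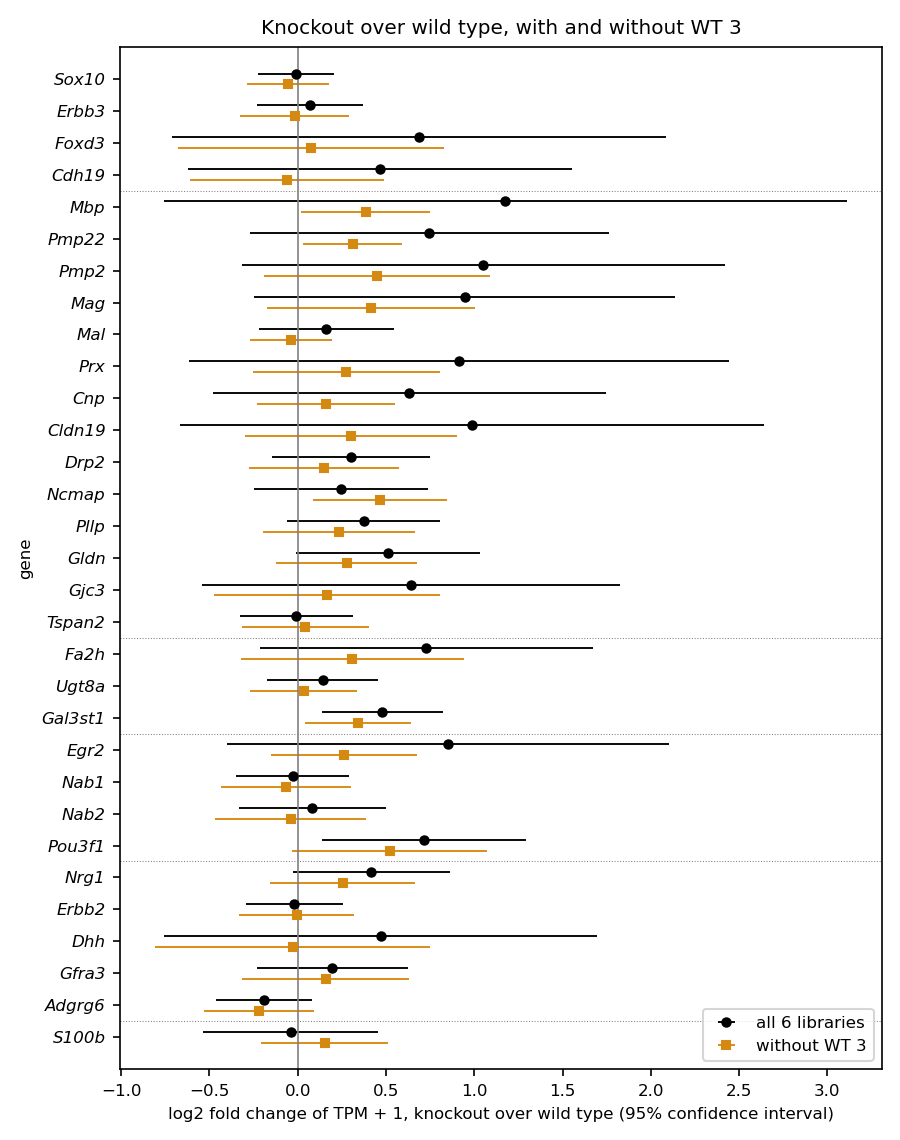
Log2 fold change (knockout over wild type, limma on log2(TPM + 1)) of each of the 31 genes with its 95% confidence interval, for all 6 libraries (black circles) and without wild type replicate 3 (orange squares). Mbp is at 1.18 with all libraries and 0.39 without that library, whereas Gal3st1 is at 0.48 and 0.34 and Sox10 stays near 0.

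How far wild type replicate 3 lay below its own group differed widely among the genes. At 13 of the 31 its value was at most 0.5 of the mean of wild type replicates 1 and 2, against 4.86% of all features. At the same number it was below 0.5 of the next lowest library, against 2.33% of all features, and it was the lowest of the 6 libraries at 24, against 20.9% of all features. Those 13 ratios ran from 0.165 for Foxd3 to 0.401 for Pmp22, and included 0.190 for Mbp, 0.205 for Pmp2, 0.211 for Cldn19, 0.238 for Egr2 and 0.246 for Prx. The other 18 ran from 0.537 for Gldn to 1.59 for Ncmap. In 7 genes another library was the lowest, namely Sox10, Ncmap, Tspan2, Nab1, Erbb2, Adgrg6 and S100b. The 13 genes had a median log2 fold change of 0.75 with all libraries and 0.28 without wild type replicate 3. For the other 18 it was 0.15 and 0.096. The genes were divided by a wild-type value that also enters the fold change, so the higher median and the wider intervals of the 13 follow from the division and are only a description.

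Knockout replicate 1 was the highest library at 25 of the 31 genes, against 25.9% of all features. Of the 31 confidence intervals, 16 lay within 2-fold in either direction with all libraries, and 28 did without wild type replicate 3. None of the 16 belongs to the 13 genes with the low ratio. Relative to wild type replicates 1 and 2 alone, the mean knockout level of the 21 myelin genes had a median ratio of 1.25, from 0.959 for Nab1 to 1.60 for Pou3f1. For the 4 lineage genes this ratio ran from 0.934 for Cdh19 to 1.13 for Foxd3.

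**Figure D4:**
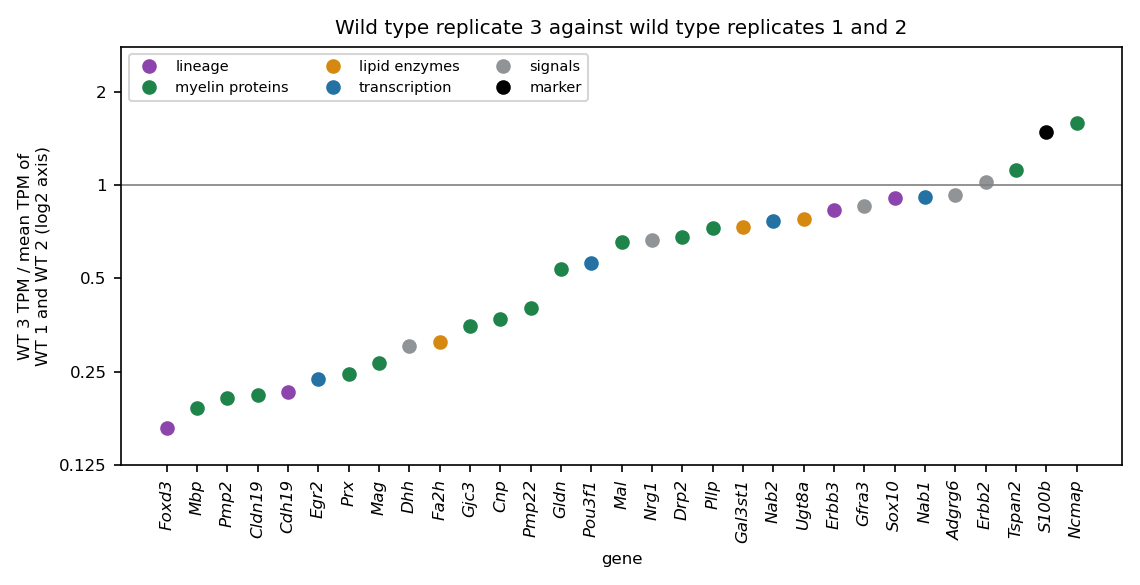
TPM in wild type replicate 3 divided by the mean of wild type replicates 1 and 2 for each of the 31 genes, on a log2 axis, ordered from low to high and coloured by role. Genes from Foxd3 to Pmp22 lie between 0.165 and 0.401, while Sox10, Nab1 and Adgrg6 lie near 1 and S100b and Ncmap above it.

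Other genes of Schwann cells and their surroundings were taken as 4 lists, and none of their tested genes passed the threshold. Of 27 tested genes of Schwann cell development and axon contact, 15 were above 0 and 12 below, with a median log2 fold change of 0.037, and -0.014 without wild type replicate 3. At 6 of the 27, wild type replicate 3 held at most 0.5 of the mean of wild type replicates 1 and 2, against 4.86% of all features. The 3 of the 27 genes with the smallest p were Ngfr, Gap43 and Ncam1. Ngfr, the low-affinity neurotrophin receptor, had 35.6, 34.2 and 32.8 TPM in knockout cochleae, against 27.9, 33.5 and 17.9 TPM in wild-type cochleae, Gap43 had 55.3, 61.2 and 49.1 TPM, against 39.8, 56.5 and 22.6 TPM, and the adhesion molecule Ncam1 had 24.6, 18.98 and 16.3 TPM, against 15.8, 18.98 and 9.49 TPM. The log2 fold changes of Ngfr, Gap43 and Ncam1 were 0.40, 0.56 and 0.44 with all libraries, and 0.16, 0.21 and 0.17 without that library. All 3 were lowest in wild type replicate 3.

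Of 12 genes of the node of Ranvier and paranode, 9 were above 0 and 3 below (median 0.14, and 0.028 without wild type replicate 3). At 5 of the 12, wild type replicate 3 held at most 0.5 of the mean of wild type replicates 1 and 2, against 4.86% of all features. Nrcam, a nodal cell adhesion molecule that is also expressed outside nerve, had 47.98, 44.8 and 45.6 TPM in knockout cochleae, against 60.9, 54.6 and 60.5 TPM in wild-type cochleae, with no overlap and a log2 fold change of -0.34 (95% confidence interval -0.52 to -0.16, limma adjusted p = 0.989), or -0.32 without wild type replicate 3. Kcna1, a juxtaparanodal potassium channel, had 16.4, 12.6 and 12.1 TPM in knockout cochleae, against 9.36, 10.8 and 2.40 TPM in wild-type cochleae (log2 fold change 0.97, and 0.40 without that library). Cntnap2 had 16.7, 15.15 and 15.7 TPM in knockout cochleae, against 13.4, 12.96 and 14.9 TPM in wild-type cochleae, with no overlap. Its log2 fold change was 0.19, and 0.25 without that library. Of 13 genes of the basal lamina and its receptors 11 were above 0 and 2 below (median 0.094, and 0.071 without that library). Those above 0 included the laminin genes Lamb1 (0.23, and 0.15 without that library) and Lama4 (0.36, and 0.20 without that library). Itgb4 was below 0 (-0.17, and -0.16 without that library), with all its knockout values below all its wild-type values. Of 20 genes of cholesterol and sphingolipid synthesis 15 were above 0 and 5 below (median 0.081, and 0.11 without that library). Elovl1, which elongates fatty acids for sphingolipids, had 95.3, 93.2 and 94.4 TPM in knockout cochleae, against 70.96, 82.01 and 87.4 TPM in wild-type cochleae (log2 fold change 0.24, and 0.30 without that library).

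Markers of other cells were measured beside these genes. The 18 neuronal markers, of which 16 were above 0, had a median log2 fold change of 0.79, and 0.27 without wild type replicate 3. They summed to between 1368 and 1629.8 TPM in the knockout libraries and between 874 and 1384 TPM in wild-type cochleae. At 13 of the 18, wild type replicate 3 held at most 0.5 of the mean of the other 2 wild-type libraries. Tubb3, the neuronal tubulin, had 79.3, 90.1 and 73.9 TPM in knockout cochleae, against 46.6, 69.2 and 12.9 TPM in wild-type cochleae. Isl1 had 210, 201 and 214 TPM in knockout cochleae, against 218, 207 and 245 TPM in wild-type cochleae. Syt1 had 64.1, 59.1 and 57.5 TPM in knockout cochleae, against 69.6, 63.8 and 68.03 TPM in wild-type cochleae. For both Isl1 and Syt1 a library other than wild type replicate 3 was the lowest. Most neuronal markers thus shared the low library with many of the 31 genes, and their part in each other's values was not tested.

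Oligodendrocytes of the central nervous system also make Mbp, Mag, Cnp and Mal. Of 10 markers of those cells, 7 were below 1 TPM in every library, among them Olig1, Olig2, Mog, Mobp and Opalin. The 10 summed to between 18.9 and 27.6 TPM in knockout cochleae and between 16.5 and 18.8 TPM in wild-type cochleae. Nearly all of this came from Sox17, Cspg4 and Aspa, which other cells also express. None of the 10 was at 0 in every library. For satellite glia markers the median was 0.11 with all libraries and 0.061 without wild type replicate 3. In the same order of settings it was 0.11 and 0.016 for melanocyte markers, -0.10 and -0.061 for hair cell markers, -0.14 and -0.047 for supporting cell markers, 0.037 and 0.059 for fibroblast markers, 0.024 and 0.024 for endothelial cell markers and -0.47 and -0.47 for red blood cell markers. Of the 6 satellite glia markers, wild type replicate 3 was lowest at 2 and highest at 2.

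**Figure D5:**
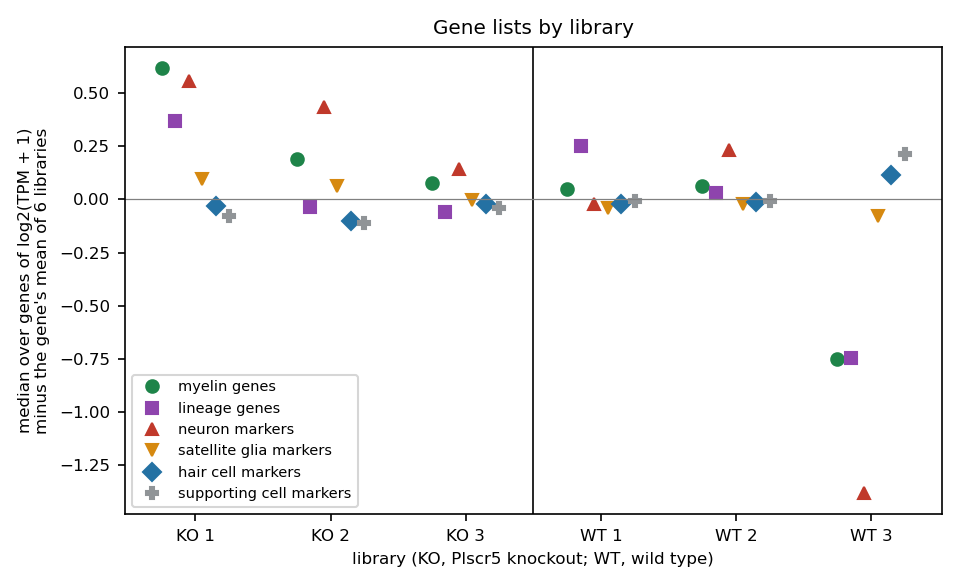
Median over the genes of each list of log2(TPM + 1) minus the gene's mean over 6 libraries, for each library, knockout left and wild type right. In wild type replicate 3 the myelin and lineage genes are at -0.75 and the neuron markers at -1.38, while hair cell and supporting cell markers are at 0.12 and 0.22.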

How the data were processed

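RNA-seq of cochleae from 3 knockout and 3 wild-type samples was used as deposited, 1 file per library. The deposited values are TPM, scaled by the authors for length and to a total of 1000000, a unit read from the values. Per the submitters' processing notes, DESeq2 and the build mm8 were used, with no role given. Aligner, quantifier and strand setting: not given in the sources used here. TPM keeps no depth, so no counting interval or floor can be given. Symbols came from GENCODE M21 and promoters from RefSeq (GRCm38.p6), matched by symbol. The deposited files hold no coordinates.

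Testing was limited to features with 1 TPM or more in 3 or more libraries and used log2(TPM + 1), a pseudocount of 1, with limma 3.58.1 in R 4.3.3 (intensity trend, robust moderation, threshold 0.05). The procedure was tested on simulated data. Medians over genes are descriptions without a test. Named beside the 31 genes were Plscr5 and up to 3 genes with the smallest p of each of 4 pathway lists. Tubb3, Isl1, Syt1 and the oligodendrocyte markers were also named, chosen from the marker lists after their values were seen. The members and lists were chosen with earlier results of these data known. The pairs of genes compared as ratios were chosen after their values were seen. Alternatives were other filters, pseudocounts, a median-of-ratios scaling, other variance settings, a replicate block and the omission of single libraries.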

Additional observations from a re-analysis of the deposited data

How the results depend on the processing

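In none of 14 alternatives did any of the 31 genes pass (smallest limma adjusted p 0.663, and 2 of the 31 had an unadjusted p under 0.05 in the fit reported). Features passing, 2 in the fit reported, numbered 0 without a filter, 1 with median-of-ratios scaling, 0 without the intensity trend, 0 with the replicate block and 0 to 3 with single libraries left out, that is 0 when wild type replicate 1 or either of knockout replicates 1 and 3 was omitted, and 3 without wild type replicate 3. In those settings with 0, between 515 and 1250 features had an unadjusted p under 0.05. The median log2 fold change of the 31 genes ranged from 0.16 (without wild type replicate 3) to 0.57, that of the myelin genes from 0.28 to 0.86 and that of the lineage genes from -0.036 to 0.51 with single libraries left out. In the other alternatives these medians kept their sign. The cause was not tested.

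Of 432 gene values under alternatives 408 kept direction and call, and 24 changed sign, in 10 genes. With median-of-ratios scaling Sox10 was at 0.0027 and Tspan2 at 0.0026. With single libraries left out, Sox10 ranged from -0.10 to 0.051, Erbb3 from -0.061 to 0.15, Cdh19 from -0.062 to 0.89, Mal from -0.036 to 0.28, Tspan2 from -0.076 to 0.085, Nab1 from -0.15 to 0.046, Nab2 from -0.10 to 0.22, Erbb2 from -0.14 to 0.065, Dhh from -0.0295 to 0.79 and S100b from -0.23 to 0.15.

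The shared replicate numbers were not treated as pairs. Deviations from the group means correlated at 0.19, -0.055 and 0.24 for numbers 1, 2 and 3 across tested features. Knockout replicates 1 and 3 each correlated best with the wild-type library of their own number. Knockout replicate 2 correlated best with wild type replicate 3 (0.081). Whether libraries of the same number belong together was not tested. With the block, 0 features passed in limma, and 1250 had an unadjusted p under 0.05, against 684 in the fit reported.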

Other observations

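Ratios between genes within a library show which of them kept their proportions. Prx to Cldn19 lay between 1.32 and 1.67 in all 6 libraries, and Mag to Prx between 0.256 and 0.331. Sox10 to Erbb3 lay between 2.85 and 3.34. Mbp to Pmp22, both genes of compact myelin, was 1.32, 1.26 and 1.21 in the knockout libraries, against 1.19, 1.21 and 0.568 in the wild-type libraries. Foxd3 to Sox10 was 0.0496, 0.0274 and 0.0275 in the knockout, against 0.0341, 0.0274 and 0.00559 in the wild type. Egr2 to its cofactor gene Nab2 was 0.613, 0.800 and 0.578 in the knockout, against 0.482, 0.571 and 0.164 in the wild type. These ratios were chosen after the values were seen and have no test.

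The 7 red blood cell markers summed to 443, 1482 and 634 TPM in the knockout, against 911, 1048 and 1029 TPM in the wild type. Knockout replicate 1, the highest library for most of the 31 genes, was the lowest here. Most of the sum comes from alpha and beta globin genes, whose near-identical copies can share reads.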
